A study of Saccharomyces cerevisiae with 8 samples.

Results

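Long open reading frames (ORFs) that lie downstream of others on yeast noncoding transcripts were examined by ribosome profiling, which sequences the RNA fragments shielded by ribosomes. The transcripts, called XUTs for Xrn1-sensitive unstable transcripts, are *Saccharomyces cerevisiae* noncoding RNAs that accumulate when the cytoplasmic exonuclease Xrn1 is missing. Members were chosen by position and length only. In XUTs with 3 or more listed ORFs outside the 2-micron plasmid, ORFs were ordered from the 5′ end, and those of order 3 or later and over 150 nt were kept. They number 746 of the 13941 listed ORFs and lie in 450 of the 1343 XUTs with 3 or more ORFs. At the length limit, the 39 members of 153 nt had a median of 3 reads over all conditions, and the 47 downstream ORFs of 150 nt just outside it had a median of 2.

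All cells were of the BY4741 background (MATa with his3Δ1, leu2Δ0, met15Δ0 and ura3Δ0) and were grown in YPD at 30 °C. The 4 conditions were upf1 cells treated with cycloheximide (CHX) for 15 min, untreated upf1 cells, wild-type (WT) cells treated with CHX, and untreated WT cells. The upf1 cells carry a kanMX4 cassette at UPF1, written upf1\*::kanMX4 in the labels. Each condition had 2 biological replicates, but the deposited table gives only their merged value. Replicate errors and tests between conditions were therefore not available for any result that follows. Outside the plasmid the listed ORFs held 41067 reads in upf1 + CHX, 23650 in upf1, 33176 in WT + CHX and 4429 in WT. These sums are not library depths. Levels were therefore compared as shares of them, with 95% intervals for counting error only.

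Ribosomes usually scan from the 5′ end of an RNA and start at an early AUG, so a downstream ORF is reached by leaky scanning, by reinitiation or on a shorter transcript. Upf1 is an RNA helicase needed for nonsense-mediated decay, which degrades RNAs on which translation ends far from the 3′ end. CHX blocks elongation and holds ribosomes on the RNA.

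The 5 members with the most reads are shown from the R64 genome because their reads are described singly below. Each runs 5′ to 3′ on the ORF's own strand, and capitals mark the start codon and the stop codon. The stop codon is not part of the listed interval.
XUT0957, chr2:169637-169870, minus strand: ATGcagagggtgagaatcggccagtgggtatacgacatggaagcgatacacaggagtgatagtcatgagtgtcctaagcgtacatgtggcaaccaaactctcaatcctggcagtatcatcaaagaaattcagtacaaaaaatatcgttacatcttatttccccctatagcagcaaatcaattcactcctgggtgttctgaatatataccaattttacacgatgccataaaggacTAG
XUT0869, chr16:243231-243428, plus strand: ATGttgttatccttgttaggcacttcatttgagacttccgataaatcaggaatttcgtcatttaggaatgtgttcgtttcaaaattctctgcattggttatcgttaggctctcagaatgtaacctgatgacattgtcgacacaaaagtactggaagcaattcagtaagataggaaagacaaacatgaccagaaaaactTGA
XUT1577, chr13:619102-619371, minus strand: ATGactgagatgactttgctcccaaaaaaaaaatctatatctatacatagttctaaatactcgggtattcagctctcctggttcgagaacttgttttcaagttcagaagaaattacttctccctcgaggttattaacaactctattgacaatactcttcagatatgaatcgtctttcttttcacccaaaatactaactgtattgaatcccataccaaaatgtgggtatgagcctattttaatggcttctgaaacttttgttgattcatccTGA
XUT0673, chr12:910251-910406, plus strand: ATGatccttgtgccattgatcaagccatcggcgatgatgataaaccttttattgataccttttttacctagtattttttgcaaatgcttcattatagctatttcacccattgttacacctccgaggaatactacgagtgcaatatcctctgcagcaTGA
XUT0195, chr4:831908-832129, plus strand: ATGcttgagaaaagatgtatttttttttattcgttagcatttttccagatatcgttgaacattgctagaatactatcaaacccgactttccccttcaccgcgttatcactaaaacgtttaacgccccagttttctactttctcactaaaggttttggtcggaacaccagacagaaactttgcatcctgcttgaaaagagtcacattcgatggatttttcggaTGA

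Member length ran from 153 to 4038 nt around a median of 189 nt, with 54 members over 300 nt. Their order in the XUT ran from 3 to 46 with a median of 8. Of the 746, 549 (73.6%) lay opposite a coding sequence (CDS) and 190 (25.5%) overlapped no CDS, while 5 overlapped a CDS and 2 a pseudogene on their way. Among downstream ORFs of 31 to 150 nt, 58.8% lay opposite a CDS, and among first ORFs 51.7% did. The median GC content was 40.4% in the members and 39.2% in the downstream ORFs of 31 to 150 nt. A purine stood at position -3 before the ATG, the base that most affects start-site choice, in 52.4% of the members and 53.5% of the first ORFs.

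Most members opposite a gene shared 1 codon register with it. In 331 of the 549 (60.3%) the first base of the ORF's codons paired with codon position 2 of the opposite CDS, in 123 (22.4%) with position 3 and in 94 (17.1%) with position 1. The remaining 1 crossed an intron and changed register. In downstream ORFs of 31 to 150 nt the share with position 2 was 37.2%, and in those of up to 30 nt it was 25.5%. Over all downstream ORFs opposite a CDS this share was higher in each longer class, reaching 67.6% at 201 to 300 nt (204 ORFs) and 77.3% over 300 nt (44 ORFs). Across the 350 genes opposite members, the reversed strand held 3.68 stop codons per 100 codons in the position 2 register, 5.61 in the position 3 register and 6.68 in the position 1 register. Length was part of the choice of members, so the low stop density and their register are a description.

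The register is shown for the first 30 bases of the XUT0869 member, which lies wholly opposite YPL162C, a gene on the minus strand (chr16:243231-243260). Capitals mark the first base of each codon on either strand, each read 5′ to 3′, so the last base of the CDS strand faces the first base of the ORF.
XUT0869 ORF: AtgTtgTtaTccTtgTtaGgcActTcaTtt
YPL162C strand: aAatGaaGtgCctAacAagGatAacAacAt

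**Figure D1:**
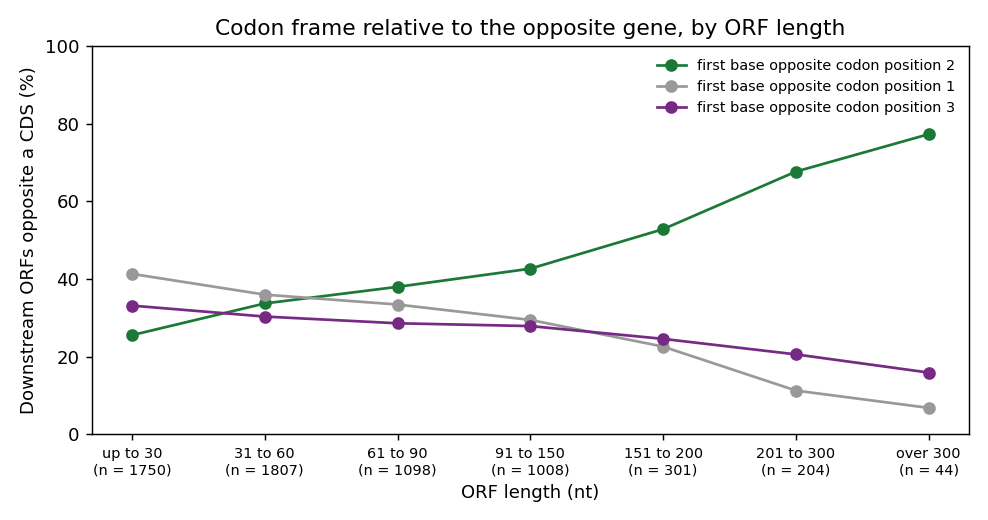
Percent of downstream ORFs opposite a CDS (y axis) whose first codon base faces codon position 1, 2 or 3 of the opposite gene, by ORF length in nt (x axis, n below each class). The share facing position 2 is 25.5% up to 30 nt and 77.3% over 300 nt.

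Reads in members were few and uneven. Of the 746, 81 (10.9%) had no read in any condition, the median over all conditions was 4 reads, and the 10 most-read members held 30.8% of all member reads. At least 1 read was found in 507 members in upf1 + CHX, 483 in upf1, 473 in WT + CHX and 216 in WT. At least 10 reads were found in 83, 68, 64 and 5 of them in the same order. A further listed ORF on the same strand overlapped 658 of the members and can share their reads. Over all members a median of 33.8% of the length was covered in this way. In 99 members the overlapped ORF had more reads than the member itself.

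Per nt, members were read less than first ORFs in every condition. Members held 23.8 reads per kb in upf1 + CHX, 19.7 in upf1, 17.1 in WT + CHX and 3.64 in WT. First ORFs held 161, 77.7, 126 and 13.3 reads per kb in the same conditions. The member density was 14.8% of that in first ORFs in upf1 + CHX, 25.3% in upf1, 13.5% in WT + CHX and 27.4% in WT. The relative density was lower in both treated conditions than in both untreated ones.

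As a share of all reads, members held 9.55% in upf1 + CHX (9.27 to 9.84), 13.7% in upf1 (13.3 to 14.1), 8.47% in WT + CHX (8.17 to 8.77) and 13.5% in WT (12.6 to 14.6). They make up 18.1% of the listed nt. Without the most-read member, in XUT0957, the share was 12.9% (12.5 to 13.4) in upf1 and 10.6% (9.73 to 11.6) in WT. The closeness of the 2 untreated conditions therefore rested on that ORF. Both untreated conditions still stood above the treated ones, which were at 8.85% in upf1 + CHX and 7.71% in WT + CHX without it. First ORFs went the other way, with 33.6% in upf1 + CHX, 28.1% in upf1, 32.5% in WT + CHX and 25.7% in WT. Shares sum to a fixed total, so a larger share of first ORFs leaves less for the others.

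**Figure D2:**
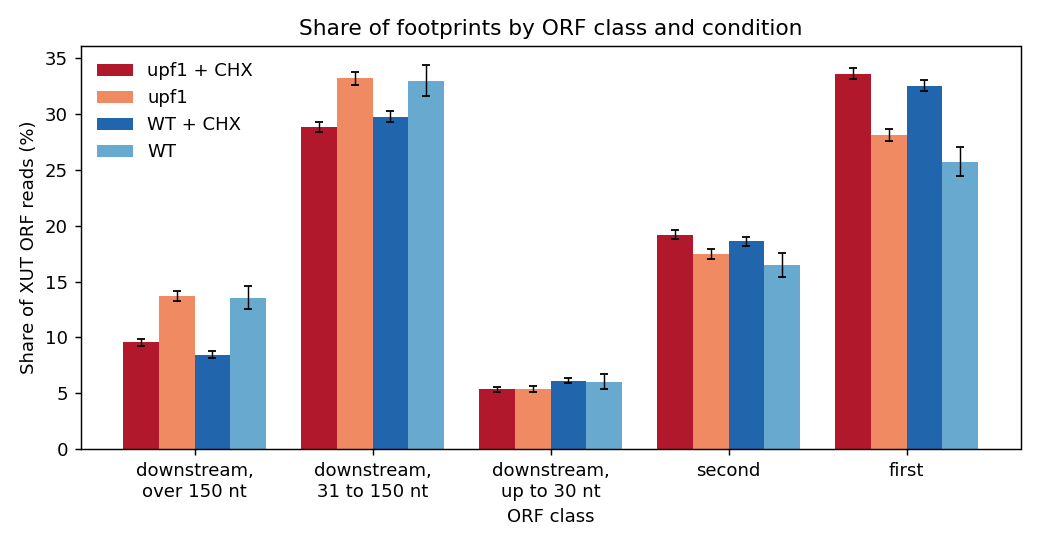
Share of the reads in all listed ORFs outside the plasmid (y axis, %) for 5 ORF classes (x axis) in upf1 + CHX, upf1, WT + CHX and WT; bars are the merged value of each condition and error bars 95% exact intervals for counting error. Downstream ORFs over 150 nt hold 9.55% and 8.47% with CHX, against 13.7% and 13.5% without.

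CHX was first compared with no treatment in upf1 cells. The member share with CHX was 0.697 times that without (log2 -0.52, -0.59 to -0.45). By the same measure downstream ORFs of 31 to 150 nt were at -0.20 (-0.24 to -0.16), those of up to 30 nt at -0.01 (-0.11 to 0.10) and first ORFs at 0.26 (0.22 to 0.30). Of the 155 members with at least 10 reads over both conditions, 53 (34.2%) had a share at least 2-fold lower with CHX, against 14.3% of all 1319 ORFs at that depth. Another 10 (6.45%) had a share at least 2-fold higher, against 22.2% of all. The median log2 ratio was -0.55 in these members and 0.17 in all ORFs. Comparisons with all ORFs include the members.

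In WT cells the member share with CHX was 0.625 times that without (log2 -0.68, -0.81 to -0.55). Without the most-read member, in XUT0957, the log2 ratio was -0.47 (-0.61 to -0.32), and among ORFs that overlap no other it was -0.47 (-0.98 to 0.07), an interval that includes 0. With the plasmid in the total it was -0.37 (-0.50 to -0.24). Downstream ORFs of 31 to 150 nt were at -0.15 (-0.23 to -0.07) and first ORFs at 0.34 (0.25 to 0.43). Of 74 members with at least 10 reads over both conditions, 18 (24.3%) were at least 2-fold lower with CHX, against 15.8% of all 866 ORFs. Another 17 (23.0%) were at least 2-fold higher, against 34.3% of all. The median log2 ratio was -0.24 in these members and 0.21 in all ORFs. In 47 of these members WT had under 4 reads, so single ratios against WT are imprecise.

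In upf1 the log2 ratio with CHX was most negative in members far from the 5′ end. The log2 ratio was -0.21 (-0.36 to -0.06) for the 92 members of order 3, -0.18 (-0.35 to -0.02) for the 74 of order 4, -0.50 (-0.62 to -0.38) for the 269 of order 5 to 9 and -0.94 (-1.06 to -0.82) for the 311 of order 10 or later. Shorter downstream ORFs of 31 to 150 nt at the same orders gave -0.06 (-0.15 to 0.03), -0.11 (-0.22 to 0.00), 0.01 (-0.06 to 0.08) and -0.60 (-0.67 to -0.52). At order 5 to 9 and at order 10 or later, the counting intervals of the members lay wholly below those of the ORFs of 31 to 150 nt. Downstream ORFs shorter than 31 nt were at 0.22 (0.05 to 0.38) for order 5 to 9. At order 10 or later they were at -0.74 (-0.93 to -0.55), an interval that overlapped that of the members. The lower share with CHX at order 10 or later was therefore not limited to long ORFs. Leaving out ORFs over Ty elements and long terminal repeats (LTRs), whose copies can share reads, members of order 10 or later were at -0.84 (-0.97 to -0.71).

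In WT the order was less regular. Members of order 3 were at -0.13 (-0.45 to 0.20) and those of order 5 to 9 at -0.04 (-0.32 to 0.24). Members of order 10 or later were at -0.92 (-1.16 to -0.67), or -0.75 (-1.02 to -0.48) without Ty and LTR ORFs. Order 4 was at -1.38 (-1.61 to -1.15) with the most-read member and at -0.66 (-1.04 to -0.27) without it. Shorter ORFs of 31 to 150 nt were at -0.37 (-0.53 to -0.20) for order 3, 0.14 (-0.09 to 0.37) for order 4, 0.04 (-0.10 to 0.18) for order 5 to 9 and -0.35 (-0.50 to -0.20) for order 10 or later. In WT the shorter ORFs thus showed no steady order from the 5′ end, and at order 3 their value was lower than that of the members, with overlapping intervals.

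**Figure D3:**
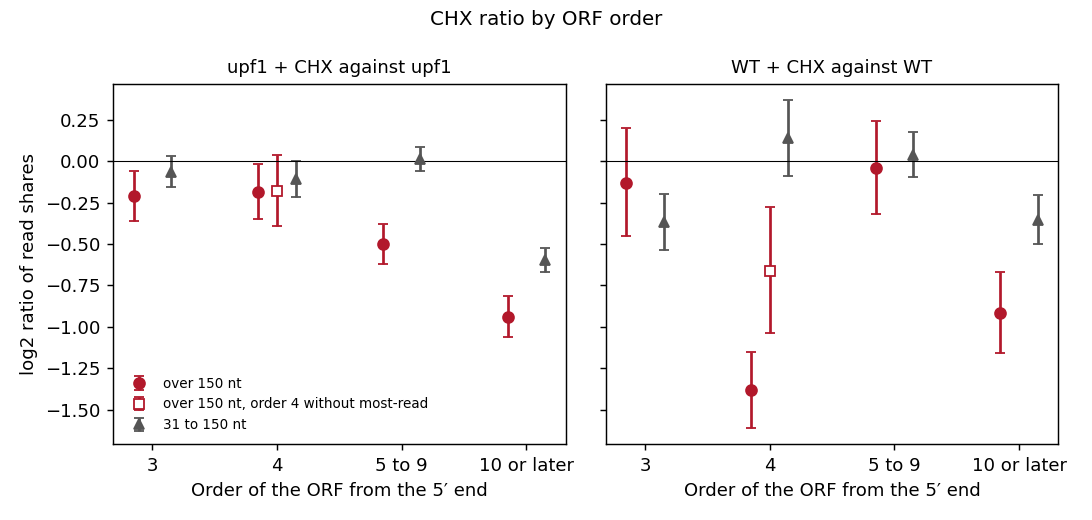
Log2 ratio of the read share with CHX to that without (y axis) by order of the ORF from the 5′ end (x axis), in upf1 and in WT; circles are members, open squares members of order 4 without the most-read one, triangles downstream ORFs of 31 to 150 nt, and bars 95% counting intervals. In upf1 members of order 10 or later lie at -0.94 and those of order 3 at -0.21.

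Loss of Upf1 was compared next. With CHX the member share in upf1 was 1.13 times that in WT (log2 0.17, 0.10 to 0.24), and downstream ORFs of 31 to 150 nt were at -0.05 (-0.08 to -0.01). Among ORFs that overlap no other, however, the log2 ratio was -0.030 (-0.28 to 0.22). Of 140 members with at least 10 reads over both conditions, 20 (14.3%) were at least 2-fold higher in upf1, against 8.7% of all 1517 ORFs, and 15 (10.7%) were at least 2-fold lower, against 10.4%. Their median log2 ratio was 0.22, against -0.03 in all ORFs. Members opposite a CDS were at 0.27 (0.18 to 0.36) and those without a CDS at 0.00 (-0.12 to 0.12).

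Without CHX the member share in upf1 was 1.01 times that in WT (log2 0.02, -0.11 to 0.14). Leaving out the most-read member gave 0.28 (0.14 to 0.43), and putting the plasmid into the total gave 0.25 (0.12 to 0.38). Members opposite a CDS were at 0.48 (0.30 to 0.66). Those without a CDS were at -0.69 (-0.88 to -0.50), but at -0.12 (-0.37 to 0.14) without the most-read member. Of 83 members with at least 10 reads over both conditions, 31 (37.3%) were at least 2-fold higher in upf1, against 28.3% of all 593 ORFs, and 11 (13.3%) were at least 2-fold lower, against 16.5%. Their median log2 ratio was 0.31, against 0.25 in all ORFs, and 57 of them had under 4 reads in WT.

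The most-read member was the 234-nt ORF of XUT0957, 261 nt from RPL19B, a gene for a protein of the large ribosomal subunit. It had 315 reads in upf1 + CHX, 208 in upf1, 273 in WT + CHX and 144 in WT. Its counts differed less between conditions than the totals did, and it held 144 of the 600 member reads in WT. Its share was therefore lower in upf1 than in WT (log2 -1.89, -2.20 to -1.57) and lower with CHX than without in WT (log2 -1.98, -2.28 to -1.68). Its score was 0.388 in upf1 + CHX, 0.315 in upf1, 0.351 in WT + CHX and 0.391 in WT.

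Members opposite genes filled most of the next places. The 198-nt ORF of XUT0869 opposite YPL162C, shown above, had 187 reads in upf1 + CHX, 158 in upf1, 50 in WT + CHX and 11 in WT. With CHX its share in upf1 was 3.02 times that in WT (log2 1.60, 1.14 to 2.08). The 270-nt ORF of XUT1577 lies over 202 nt opposite FPY1 and had 141 reads in upf1 + CHX, 94 in upf1, 103 in WT + CHX and 23 in WT. The 222-nt ORF of XUT0195, over 196 nt opposite UPS3, a gene of the mitochondrial UPS family, had 120, 82, 94 and 4 reads in the same order. In both, the 3 deeper conditions lay close together and WT far below. In XUT0195 WT was lower than in the totals. Its share was 3.84 times that in WT in upf1 (log2 1.94, 0.53 to 3.85) and 3.14 times in WT + CHX (log2 1.65, 0.25 to 3.55), on 4 WT reads. For XUT1577 the same ratios were 0.765 (log2 -0.39, -1.06 to 0.34) and 0.598 (log2 -0.74, -1.41 to -0.02).

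XUT0673 holds a pair of overlapping members opposite VPS33, which encodes a Sec1-family protein of vacuolar membrane fusion. The 156-nt ORF (910251 to 910406) had 110 reads in upf1 + CHX, 97 in upf1, 97 in WT + CHX and 3 in WT. The 183-nt ORF (910334 to 910516) had 63, 68, 48 and 2 reads. The 156-nt ORF had a share in untreated upf1 6.06 times that in WT, with a log2 interval of 1.01 to 4.90. The pair overlaps in part, so these are not independent counts. The 156-nt ORF scored 0.432 in upf1 + CHX, 0.431 in upf1 and 0.239 in WT + CHX, and the 183-nt ORF 0.189, 0.347 and 0.061.

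Other members among the 10 most read were a 216-nt ORF of XUT0129, 871 nt from GCS1, and a 276-nt ORF of XUT0147 opposite MRK1, a kinase of the glycogen synthase kinase family. They had 121 and 96 reads in upf1 + CHX, 47 and 50 in upf1, 70 and 51 in WT + CHX, and 5 and 10 in WT. A 273-nt ORF of XUT0815 opposite RSB1, which acts in the export of sphingoid bases, had 60 reads in upf1 + CHX, 77 in upf1, 15 in WT + CHX and 6 in WT. With CHX its share in upf1 was 3.23 times that in WT (log2 1.69, 0.86 to 2.62).

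**Figure D4:**
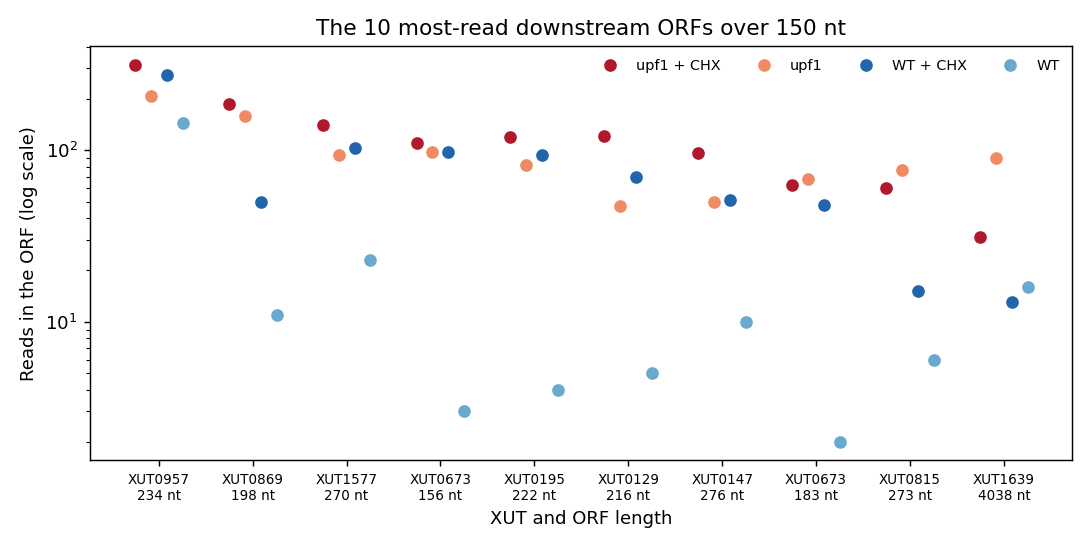
Reads (y axis, log scale) in each of the 10 members with the most reads (x axis, XUT and length), 1 point per condition. WT is lowest in 9 of the 10, the exception being the 4038-nt ORF of XUT1639 with 16 reads in WT and 13 in WT + CHX.

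The 5 longest members all lay on the strand of Ty2 retrotransposons, whose gag and pol genes give long ORFs and whose copies can share reads. The 4038-nt ORF of XUT1639 (chromosome 14, 562390 to 566427) had 31 reads in upf1 + CHX, 90 in upf1, 13 in WT + CHX and 16 in WT. Its share with CHX was 0.198 times that without in upf1 (log2 -2.33, -2.97 to -1.73) and 0.108 times in WT (log2 -3.20, -4.38 to -2.06). The 1047-nt ORF upstream of it had 34, 41, 7 and 4 reads in the same order of conditions. In XUT1240 (chromosome 7) the 2301-nt ORF had 3, 2, 2 and 0 reads, the 1164-nt ORF 16, 19, 6 and 3, and the 1047-nt ORF 23, 21, 15 and 3. In all, 28 members overlapped a Ty element or LTR.

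Further members had the largest share ratios, and since they were picked for that, their sizes are descriptions. In XUT1612, opposite YTP1, the 333-nt ORF had 42 reads in upf1 and 1 in WT. For the 165-nt ORF of the same XUT, 32 reads in upf1 stood against 0 in WT. The counting interval of its log2 share ratio began at 0.62 and had no upper end, because the WT count was 0. With CHX against none in upf1 this ORF was at log2 -2.34 (-3.47 to -1.31), on 11 and 32 reads. A 237-nt ORF of XUT0156, partly opposite the glucose receptor gene GPR1, had 45 reads in upf1 + CHX, 4 in upf1, 22 in WT + CHX and 0 in WT. Its share in upf1 was 6.48 times higher with CHX (log2 2.70, 1.24 to 4.63), against the direction of most members. So was that of a 258-nt ORF of XUT0822 opposite YOR097C (log2 1.88, 0.91 to 3.01, on 64 and 10 reads). Likewise, a 207-nt ORF of XUT1462, 80 nt from PCC1, was at 1.84 (0.46 to 3.56, on 31 and 5 reads). A 219-nt ORF of XUT1570 had 19 reads with CHX and 4 without, and its interval included 0 (log2 1.45, -0.14 to 3.47).

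Lower shares with CHX in upf1 were found in a pair of XUT0047 members near TRM7, a tRNA methyltransferase gene. The 240-nt ORF had 5 reads in upf1 + CHX and 16 in upf1, and the 180-nt ORF had 6 and 17. In WT a 168-nt ORF of XUT0440, mostly opposite PAN5, had 40 reads with CHX and 0 without. A 255-nt ORF of XUT1063 opposite RAD55, a gene of recombinational repair, had 31 and 0. Both shares were higher with CHX. The counting interval of the log2 ratio began at 0.47 for XUT0440 and at 0.08 for XUT1063. Neither interval had an upper end, because the count without CHX was 0. Members lower with CHX in WT included a 162-nt ORF of XUT0398 opposite LSC2, a succinyl-CoA ligase subunit gene (log2 -2.10, -3.45 to -0.64, on 14 and 8 reads). Another was a 324-nt ORF of XUT0179 opposite AFR1 (log2 -1.66, -2.92 to -0.26, on 19 and 8 reads).

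With CHX, lower shares in upf1 than in WT were found for the 156-nt ORFs of XUT0791 near IMA2 (11 and 34 reads, 0.261 times) and XUT0942 over an LTR near UIP3 (9 and 25 reads, 0.291 times). A 213-nt ORF of XUT1251 over an LTR (5 and 15 reads) and a 156-nt ORF of XUT0957, 42 nt from RPL19B (7 and 15 reads), were also lower. A 180-nt ORF of XUT0469 opposite SOA1, a transporter gene, was higher in upf1 (30 and 8 reads, log2 1.60, 0.44 to 2.94).

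The deposited phase score, from 0 to 1, measures how far the reads of an ORF keep to 1 codon phase, and its formula is not given in the sources used here. An ORF with at least 10 reads was called at a score of at least 0.32. Called members were 50 of 83 in upf1 + CHX (60.2%, 48.9 to 70.8), against 72.6% of all ORFs at that depth, and 24 of 68 in upf1 (35.3%, 24.1 to 47.8), against 62.5%. They were 35 of 64 in WT + CHX (54.7%, 41.7 to 67.2), against 64.2%, and 3 of 5 in WT, against 68.1%. In upf1 + CHX and in upf1 the whole interval of the members lay below the share of all ORFs, and in WT + CHX and WT the interval included it. First ORFs in untreated upf1 were called in 68.6% (60.7 to 75.7) and downstream ORFs of 31 to 150 nt in 66.2% (57.3 to 74.2).

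The called share of members was below that of other ORFs in each depth class of upf1 and of WT + CHX and in the lower classes of upf1 + CHX, as a description with no test. In upf1 + CHX, 63.8% of 47 members and 77.5% of 448 other ORFs were called at 10 to 19 reads, 45.8% of 24 and 69.2% of 289 at 20 to 49, and 9 of 12 and 80 of 112 at 50 or more. In upf1, 41.9% of 43 members and 73.1% of 238 other ORFs were called at 10 to 19 reads, with 20 to 49 reads 13.3% of 15 and 57.8% of 147, and with 50 or more reads 40.0% of 10 and 62.9% of 35. In WT + CHX the shares were 65.8% of 38 and 68.9% of 392 at 10 to 19 reads, 36.8% of 19 and 62.0% of 250 at 20 to 49, and 42.9% of 7 and 56.3% of 80 at 50 or more. The direction was the opposite in upf1 + CHX at 50 or more reads. The median length at 10 to 19 reads in untreated upf1 was 204 nt in the members and 84 nt in the others. The part of length and of overlapping ORFs in the score was not tested. In all, 80 of the 112 members with at least 10 reads in any condition were called in at least 1 condition, and they lay in 69 XUTs. The like count over all ORFs was not made. Of the 80, 72 overlapped another listed ORF, as did 658 (88.2%) of all 746 members.

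**Figure D5:**
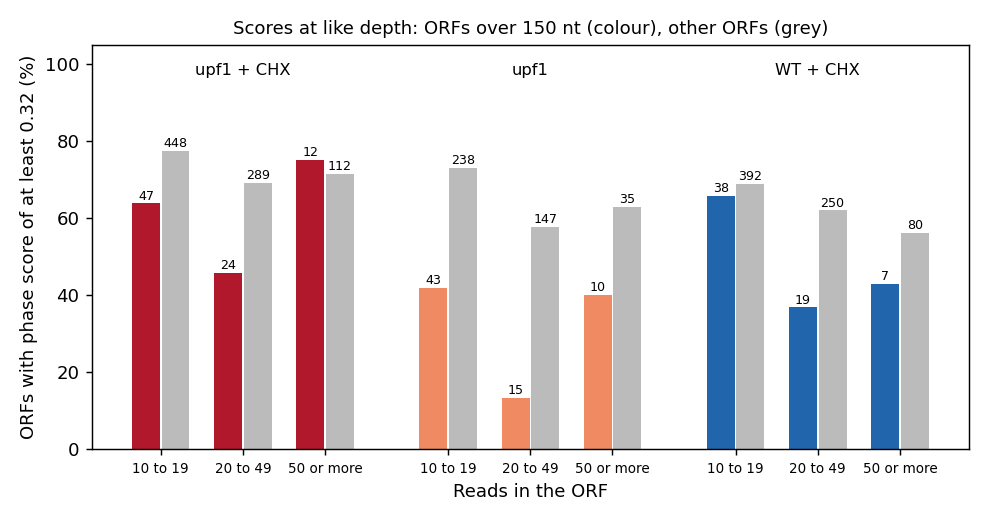
Percent of ORFs with a phase score of at least 0.32 (y axis) by reads in the ORF (x axis) in upf1 + CHX, upf1 and WT + CHX; coloured bars are members, grey bars all other ORFs outside the plasmid, with the number of ORFs above each bar. In upf1 the members lie below the others at each depth, by 41.9% against 73.1% at 10 to 19 reads; WT had 5 members with 10 reads and is not drawn.

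The median score differences between the deeper conditions had intervals over members that included 0 at 10 or more reads. Among members holding 10 or more reads in each condition, the median of upf1 + CHX minus upf1 was 0.047 (-0.020 to 0.115, 52 members, 32 of them higher with CHX). Over all ORFs at that depth it was -0.0046 (-0.018 to 0.020, 214 of 436 higher). At 20 or more reads in each, the member median was 0.112 (0.0018 to 0.149, 18 members), an interval above 0. At 10 or more reads the median of upf1 + CHX minus WT + CHX was 0.015 (-0.025 to 0.128, 51 members, 27 higher in upf1). Over all ORFs it was 0.047 (0.026 to 0.070, 393 of 669 higher). Against untreated WT only 5 members could be compared, with medians of -0.076 for upf1 and -0.040 for WT + CHX. Over all ORFs the medians were near these, at -0.070 (46 ORFs) and -0.041 (47 ORFs). The 5 members were the leading ones of XUT0957, XUT0869, XUT1577, XUT0147 and XUT1639. The XUT0869 score was 0.399 in upf1 and 0.365 in WT + CHX against 0.750 in WT, and the XUT1577 score was 0.319 and 0.340 against 0.077.

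The members with the highest mean of the 4 scores, given 10 reads in both CHX conditions, included several with 1 or 2 reads in a condition, where a score near 1 carries little information. Their scores on all reads together are given beside those of single conditions. Among them was a 165-nt ORF of XUT1417 opposite JEN1, the lactate transporter gene, with 0.686 in upf1 + CHX (14 reads), 0.439 in upf1 (18 reads) and 0.815 in WT + CHX (10 reads), and 0.543 on all 43 reads. A 216-nt ORF of XUT0033 scored 0.289 in upf1 + CHX (25 reads) and 1 in WT + CHX (20 reads), but 0.188 on all 54 reads, below the 0.32 threshold. A 258-nt ORF of XUT0020, partly opposite SCS22, scored 0.556 in upf1 + CHX (12 reads) and 0.176 in WT + CHX (17 reads), and 0.238 on all 34 reads, also below it. A 285-nt ORF of XUT0281 opposite GPP2, a glycerol-phosphate phosphatase gene, scored 0.699 in upf1 + CHX (16 reads), 0.179 in upf1 (17 reads) and 0.382 in WT + CHX (15 reads), and 0.450 on all 49 reads.

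Large score differences were also seen elsewhere. The 162-nt ORF of XUT0387, mostly opposite PBP1, scored 0.581 in upf1 + CHX (27 reads), 0.167 in upf1 (10 reads) and 0 in WT + CHX (24 reads). The 183-nt ORF of XUT0814 near RAT1 scored 0.738 in upf1 + CHX and 0.333 in WT + CHX, on 15 and 10 reads. The 177-nt ORF of XUT1782 opposite CSR2 scored 0.619 in upf1 + CHX and 0.111 in upf1, on 13 and 10 reads. Lower scores in upf1 + CHX were found in the 285-nt ORF of XUT0741 opposite ADH2, with 0.195 against 0.471 in WT + CHX, on 33 and 20 reads. The 189-nt ORF of XUT0311 opposite EPL1, a subunit gene of the NuA4 acetyltransferase, scored 0.241 against 0.545 in WT + CHX, on 13 and 10 reads. In upf1, the 189-nt ORF of XUT1590 near RPS10B scored 0.198 with CHX and 0.729 without, on 27 and 11 reads. The 189-nt ORF of XUT0272 near MIG3 scored 0.100 and 0.509, on 13 and 11 reads, and the 156-nt ORF of XUT1746 over an LTR 0.130 and 0.481, on 26 and 14 reads.

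Within their own 450 XUTs, members make up 31.4% of the listed nt. They held 18.5% of the reads of these XUTs in upf1 + CHX (17.9 to 19.0), 22.9% in upf1 (22.2 to 23.6), 17.3% in WT + CHX (16.7 to 17.8) and 27.0% in WT (25.2 to 28.9). Without XUT0957 the values were 17.5%, 21.9%, 16.0% and 22.6%, so the difference between upf1 and WT without CHX rested on that XUT, while the lower shares with CHX did not. In 82 of the 318 such XUTs with at least 20 reads over all conditions, a member was the most-read ORF, and in 123 the first ORF was. Counting XUTs with at least 20 reads in the condition itself, a member was the most-read ORF in 51 of 223 in upf1 + CHX, 38 of 160 in upf1, 38 of 198 in WT + CHX and 11 of 22 in WT. The first ORF was so in 89, 50, 83 and 4 of them in the same order, so members outnumbered first ORFs only in WT. The XUTs that passed this limit differed between conditions, and in WT only 22 did. The same XUTs were not compared over the conditions.

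Some XUTs held several members. XUT0933, opposite BDH2 and the glutamate dehydrogenase gene GDH3, held 6 members with 58 reads in upf1 + CHX, 95 in upf1, 41 in WT + CHX and 11 in WT. Most were in its 210-nt ORF of order 3 (chromosome 1, 34034 to 34243), with 32, 62, 24 and 5. XUT0954, opposite HEK2, a gene for an RNA-binding protein, held 6 members with 8 reads in upf1 + CHX and 11 in upf1, and none of them had a read in WT + CHX or WT. XUT1612, opposite YTP1, had the most reads of the XUTs with 5 members, with 67, 155, 23 and 5 reads in its members.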

How the data were processed

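The authors deposited 1 table with a whole-number read count and a phase score (a fraction from 0 to 1) per ORF, with replicates merged per condition. How they were merged, and how reads in overlapping ORFs were assigned, is not stated in the labels. The tools named are HISAT2 2.2.0, cutadapt and UMI-tools, and the build R64, per the submitters' processing notes. Listed intervals leave out the stop codon and count from 1; all 13912 ORFs outside the plasmid start with ATG, have no inner stop codon and precede one in the RefSeq R64 sequence. CDSs, Ty elements and LTRs came from the RefSeq annotation, with an overlap of at least 1 nt.

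Members, lists and the 0.32 threshold were chosen with earlier results of these data known. Shares have exact (Clopper-Pearson) 95% intervals, share ratios exact conditional binomial intervals, and medians order-statistic intervals over ORFs, from SciPy 1.17.1 and pandas 2.3.3. These intervals cover counting error or the spread over ORFs, not variation between cultures. Counts of 2-fold ratios used reads plus 0.5 over the total outside the plasmid. Named single ratios use the reads themselves. The planned edgeR test needs replicates and was not run. Codon registers were checked by sequence match, and share ratios were tried on simulated counts. The simulation held counting error only, without variation between cultures or reads shared by overlapping ORFs. It therefore cannot show how the intervals fare under either. Named members were the 10 most read, the 5 longest, the 4 highest and 4 lowest share ratios (20 reads or more, past 2-fold) and 3 largest score changes each way per contrast, those with 10 reads everywhere, the 5 highest mean scores over the 4 conditions, and 3 XUTs by number of members, with ties at 5 members broken by reads. Splits by order, annotation and depth were made after seeing the data.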

Additional observations from a re-analysis of the deposited data

How the results depend on the processing

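The lower member share with CHX kept its direction under all alternatives run, in upf1 and in WT, while the comparisons of upf1 with WT did not. No paired analysis was possible because the table holds 1 merged value per condition, and for the same reason leaving out replicates, edgeR and DESeq2 were not run. Depth limits WT most, where 5 members had 10 reads. Below, conditions are in the order upf1 + CHX, upf1, WT + CHX and WT, and contrasts in the order upf1 + CHX against upf1, WT + CHX against WT, upf1 + CHX against WT + CHX, and upf1 against WT.

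The member share was 2.20%, 3.54%, 2.24% and 3.11% among ORFs overlapping no other, 8.91%, 12.1%, 7.86% and 10.2% with the plasmid in the total, 0.993%, 1.76%, 0.708% and 1.56% for members over 300 nt, and 8.85%, 12.9%, 7.71% and 10.6% without the most-read member. Without Ty and LTR ORFs it was 13.2% in upf1. The log2 share ratio was -0.69, -0.47, -0.030 and 0.19 among ORFs overlapping no other, where the third changed sign and the intervals of all but the first included 0. It was -0.83, -1.14, 0.49 and 0.18 for members over 300 nt. With the plasmid it was -0.44, -0.37 and 0.25 in the first, second and last contrast, and without the most-read member -0.47 in WT with CHX and 0.28 for upf1 against WT.

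The called share was 83.6%, 78.7% and 83.9% in the first 3 conditions with at least 1 read. Most members with 1 read in a condition scored 1 there and so passed as called. These 3 values therefore cannot show how stable the called share is, and nothing is concluded from them. At a threshold of 0.5 the called share was 20.5% of 83 members, 10.3% of 68 and 12.5% of 64 in the same conditions. With at least 20 reads the called share was 55.6% of 36 members in upf1 + CHX, 24.0% of 25 in upf1 and 38.5% of 26 in WT + CHX. Among members overlapping no other the called share was 50% of 6 in upf1 + CHX (11.8 to 88.2). It was 12.5% of 8 in upf1 (0.316 to 52.7) and 85.7% of 7 in WT + CHX (42.1 to 99.6). Untreated WT left no member at this setting. The members are few and the 3 intervals overlap, so no difference between conditions is read from these shares. For the 2-fold counts, 73, 34, 68 and 28 members had at least 20 reads over both conditions. With no minimum 611, 510, 604 and 520 were compared. For neither setting was the like count over all ORFs made, so these counts have no background. The count of members at least 2-fold higher was 6, 8, 7 and 12 with at least 20 reads and 82, 27, 177 and 69 with no minimum. The count at least 2-fold lower was 23, 9, 7 and 1 with at least 20 reads and 240, 302, 153 and 123 with no minimum. With no minimum the balance for upf1 against WT was therefore 69 higher and 123 lower, against 31 and 11 at 10 or more reads, and for WT + CHX against WT 27 and 302, against 17 and 18. With no minimum, a member with 1 read in upf1 and 1 in WT is at log2 -2.42 and is counted as lower. A member with 1 read in WT + CHX and 0 in WT is at log2 -1.32 and is also counted as lower. At such counts the added 0.5 and the unequal totals set the direction, so no direction is read from these counts. How many of the lower members arise in this way was not tested. Scaling by the median ratio gave 17 lower for upf1 against WT, and a pseudocount of 1 gave 8 higher for WT + CHX against WT. The median score difference of upf1 + CHX and WT + CHX was -0.151 among 4 members overlapping no other. That of upf1 + CHX and upf1 was 0.112 with at least 20 reads, where its interval excluded 0. Of 101 alternative values, 38 kept within the interval or within 1.5 times the count.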

Other observations

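Members with a purine at position -3 held 65.3 reads per kb over all conditions without the most-read member, which also has a purine there, and members with a pyrimidine there held 50.4. Their medians were 5 and 4 reads per member. Purine members of XUT0869, XUT1577, XUT0195, XUT0129 and XUT0147 held 406, 361, 300, 243 and 207 of the 5890 purine reads. The 156-nt pyrimidine member of XUT0673 held 307 of 3745. The purine and pyrimidine densities were not computed without these members. By register, members whose codons start opposite codon position 2 held 62.7 reads per kb, those opposite position 1 held 55.9 and those opposite position 3 held 48.1. The median reads per member were 4, 3.5 and 3 in that order. The most-read members of XUT0869, XUT1577, XUT0673 and XUT0195 are all of the position 2 register. They held 406, 361, 307 and 300 of its 4592 reads, and the register densities were not computed without them. Members of order 3 held 107 reads per kb, those of order 4 held 131 (73.3 without the most-read member), those of order 5 to 9 held 56.4 and those of order 10 or later 43.0. By order, the median reads per member were 6.5, 2, 4 and 4, with no steady fall. At order 3 the members of XUT0869, XUT0195 and XUT0129 held 406, 300 and 243 of the 2198 reads. The order 3 density was not computed without them. These densities come from 1 merged value per condition and have no replicate error.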
